A study of Mus musculus with 16 samples.

Results

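The keratin and keratin-associated protein (KAP) genes were taken as the mouse protein-coding genes whose symbol is Krt followed by a digit or begins with Krtap. In the GENCODE vM1 annotation of mm9 (NCBIM37), 97 of 22367 protein-coding genes fit this rule, 51 keratins and 46 KAP genes. Of these 97 genes, 38 had a peak of at least 1 histone mark within 3000 bp of the annotated gene start in at least 1 population, and 59 had none. Among all protein-coding genes, 15875 had such a peak.

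The study mapped histone H3 trimethylated on lysine 4, 27 or 9 (H3K4me3, H3K27me3 and H3K9me3) by chromatin immunoprecipitation and sequencing (ChIP-seq) in cells sorted by flow cytometry from the skin of wild-type CD1 x FVB mice, labelled as male. EA-HFSCs are CD34+/α6-integrin+ hair follicle stem cells of the bulge in early anagen, the start of the growth phase, from postnatal day 22 to 25, and LC-HFSCs are cells of the same surface markers in late catagen, the end of follicle regression, from postnatal day 38 to 44. nEA-HFSCs and nLC-HFSCs are the CD34-/α6-integrin+ cells of the same ages, a mixture that by the study's account is mostly epidermis and lower outer root sheath. By the study's methods, 15 to 20 mice and about 3000000 to 4000000 nuclei were used for the sorted cells. The chromatin of a sorted population was divided into 4 parts, for the 3 marks and an IgG control. The samples of 1 population are therefore not separate pools of mice. The authors' 12 peak lists, 1 for each of 4 populations and 3 marks, were used here. Since each population and mark had 1 list made from pooled replicates, differences between populations could not be checked against replicates, no test was made, and every interval below covers counting error only.

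Keratins are the intermediate filament proteins of epithelial cells. An acidic type I keratin pairs with a basic type II keratin to form the filament, and the pair in use marks the kind of epithelium: Krt5 and Krt14 in basal cells that rest on the basement membrane, Krt1 and Krt10 in differentiating epidermis, Krt8 and Krt18 in simple epithelia, and hair keratins, bound together by KAPs, in the hair shaft. H3K4me3 is found at starts of active or poised genes, H3K27me3 is laid down by Polycomb repressive complex 2 at silent genes, and H3K9me3 marks heterochromatin.

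The defining genes of the sort were checked first. H3K4me3 peaks lay at the start of Cd34, the sorting antigen, in EA-HFSCs and LC-HFSCs and in neither of the CD34- populations. Of 8 bulge genes, 7, 7, 6 and 5 had an H3K4me3 peak in EA-HFSCs, LC-HFSCs, nEA-HFSCs and nLC-HFSCs; Itga6, which encodes α6-integrin, had none at its annotated start in any list. Of 5 fibroblast genes, 4, 3, 3 and 2 had an H3K4me3 peak in the same order, of 5 melanocyte genes 2, 2, 2 and 1, of 4 endothelial genes 1 in each, of 5 leukocyte genes 0, 0, 0 and 1, and of 3 muscle genes 0 in each. Of 5 epithelial genes 4 had H3K4me3 in each list, and Trp63 had no peak. The shares of all genes with H3K4me3 were 60.4, 53.9, 59.6 and 56.6%, near several of these counts. H3K27me3 lay at 0, 0, 4 and 5 of the 8 bulge genes and at 1, 0, 3 and 2 of the 5 fibroblast genes. It lay at 13.0, 3.39, 15.6 and 11.9% of all genes. The part of other cell types in the results was not tested.

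The starts of the basal and bulge keratins are shown because H3K4me3 covered them in every population. Each sequence is NCBIM37, read 5′ to 3′ along the gene's strand from 170 bases before the annotated start to 30 bases from it, with every CG and every forward TATA in capitals:
Krt5 chr15:101543293-101543492 minus strand: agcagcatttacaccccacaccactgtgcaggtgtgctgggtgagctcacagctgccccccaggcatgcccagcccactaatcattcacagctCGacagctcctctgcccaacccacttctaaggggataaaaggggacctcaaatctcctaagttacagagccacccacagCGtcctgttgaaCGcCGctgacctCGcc
Krt14 chr11:100068833-100069032 minus strand: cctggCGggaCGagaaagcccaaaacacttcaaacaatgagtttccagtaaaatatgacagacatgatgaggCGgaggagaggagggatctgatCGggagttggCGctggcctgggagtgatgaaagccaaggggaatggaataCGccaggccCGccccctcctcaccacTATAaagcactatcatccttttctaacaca
Krt15 chr11:99997234-99997433 minus strand: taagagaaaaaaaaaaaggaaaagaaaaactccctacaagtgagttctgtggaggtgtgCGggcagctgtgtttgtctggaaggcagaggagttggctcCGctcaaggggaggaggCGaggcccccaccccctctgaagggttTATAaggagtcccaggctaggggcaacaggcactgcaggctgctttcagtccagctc

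H3K4me3 covered the starts of all 3 basal and bulge keratins in all 4 populations. The peak score, which is the caller's negative log10 p-value multiplied by 10 and can be ranked only within its list, was 3100 in EA-HFSCs, 1663 in LC-HFSCs, 3100 in nEA-HFSCs and 3100 in nLC-HFSCs at Krt5, the type II keratin of basal cells. At Krt15, a type I keratin enriched in the bulge, the scores were 3100, 1496, 3100 and 3100 in the same order. At Krt14, the type I partner of Krt5, they were 3027, 437, 3100 and 3100. A score of 3100 or more was reached by 688 H3K4me3 peaks in EA-HFSCs, 2976 in nEA-HFSCs and 1002 in nLC-HFSCs, and many of these share exactly 3100, so that peaks at this score were not ranked against each other. In LC-HFSCs no H3K4me3 peak reached it, and there Krt5 ranked 19th and Krt15 26th of 14718 peaks, whereas Krt14 ranked 2652nd. The Krt14 peak thus stood in the upper 18.0% of the LC-HFSC list and in the upper 3.49% of the EA-HFSC list.

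These peaks were also broad. The Krt5 peak was 12031 bp wide in EA-HFSCs, 7909 bp wide in LC-HFSCs, 8742 bp wide in nEA-HFSCs and 7788 bp wide in nLC-HFSCs. The Krt14 peak spanned 8082, 7644, 9738 and 8915 bp and the Krt15 peak 8953, 8206, 7827 and 8135 bp in the same order. The median H3K4me3 peak of the 4 lists was 2280, 2308, 1672 and 1793 bp wide, and by width the Krt5, Krt14 and Krt15 peaks stood within the widest 1.07% of every list. In LC-HFSCs the Krt14 peak stood in the widest 0.667% of its list by width and in the upper 18.0% by score. Neither Krt5, Krt14 nor Krt15 had an H3K27me3 peak within 3000 bp of its start in any list. H3K9me3 peaks lay over the starts of Krt5 (70.0, in the upper 29.2% of the list) and Krt15 (47.7, in the upper 67.8%) in EA-HFSCs only.

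**Figure D1:**
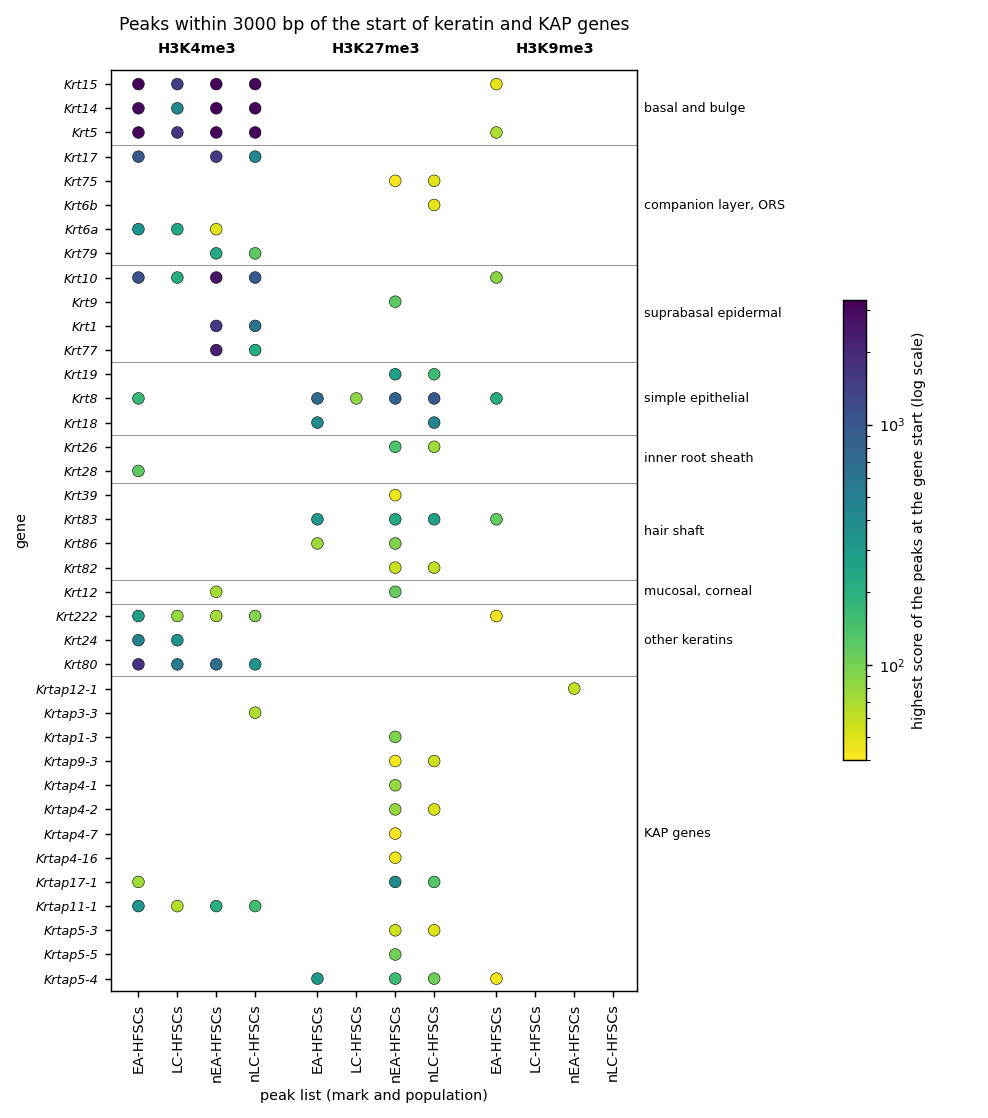
Peaks within 3000 bp of the start of the 38 keratin and KAP genes that had at least 1, by class (rows) and by peak list (columns). Each point is 1 gene in 1 list, coloured by the highest score of its peaks on a log scale; scores are not comparable between lists. H3K4me3 fills the basal and bulge rows in all 4 populations, and H3K27me3 lies mainly in nEA-HFSCs and nLC-HFSCs at simple epithelial, hair shaft and KAP genes.

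Across the whole family, H3K4me3 at the start was less frequent than among all genes. In EA-HFSCs 13 of 97 members had an H3K4me3 peak (13.4%, 95% Wilson interval 8.00 to 21.6%), against 60.4% of all protein-coding genes. In LC-HFSCs 9 members had one (9.28%, 4.96 to 16.7%), against 53.9% of all genes. In nEA-HFSCs the count was 13 (13.4%) against 59.6%, and in nLC-HFSCs 12 (12.4%, 7.22 to 20.4%) against 56.6%. Keratins made up most of these: 11 of 51 keratins in EA-HFSCs, 8 in LC-HFSCs, 12 in nEA-HFSCs and 10 in nLC-HFSCs had the mark, and of the 46 KAP genes 2, 1, 1 and 2 had it. Keratins and KAP genes were thus far below the genome-wide share in all 4 populations.

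H3K27me3 did not follow the same order. It lay at 5 members in EA-HFSCs (5.15%, 2.22 to 11.5%), against 13.0% of all genes, and at 1 member in LC-HFSCs (1.03%, 0.182 to 5.61%), against 3.39%. In nEA-HFSCs it lay at 20 members (20.6%, 13.8 to 29.7%), against 15.6% of all genes, and in nLC-HFSCs at 13 (13.4%, 8.00 to 21.6%), against 11.9%. The members' shares in nEA-HFSCs and nLC-HFSCs were close to those of all genes, and the intervals include them. Shares among genes of like CpG content, a sequence feature, are given below. The nEA-HFSC count came to 9 at a score of at least 100 (4 in EA-HFSCs), to 13 with a window of 1000 bp (5 in EA-HFSCs) and to 1 in equally long lists of top-scoring peaks (1 in EA-HFSCs). KAP genes accounted for 10 of the 20 in nEA-HFSCs and 5 of the 13 in nLC-HFSCs, and for 1 of the 5 in EA-HFSCs.

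H3K9me3 was rare at the family. In EA-HFSCs 7 members (7.22%, 3.54 to 14.2%) had an H3K9me3 peak, against 45.2% of all genes: Krt5, Krt15, Krt10, Krt8, Krt83, Krt222 and Krtap5-4. Of the 10120 genes with H3K9me3 in EA-HFSCs, 7711 also had H3K4me3 without H3K27me3, and 1409 had all 3 marks. Genes with H3K9me3 in this list thus mostly also had H3K4me3. Of the 7 members, 4 had H3K4me3 without H3K27me3 and 1 had all 3 marks. In LC-HFSCs no member had an H3K9me3 peak, where 0.295% of all genes did. In nEA-HFSCs 1 member, Krtap12-1, had one, against 2.80% of genes, and in nLC-HFSCs none, against 11.6%.

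**Figure D2:**
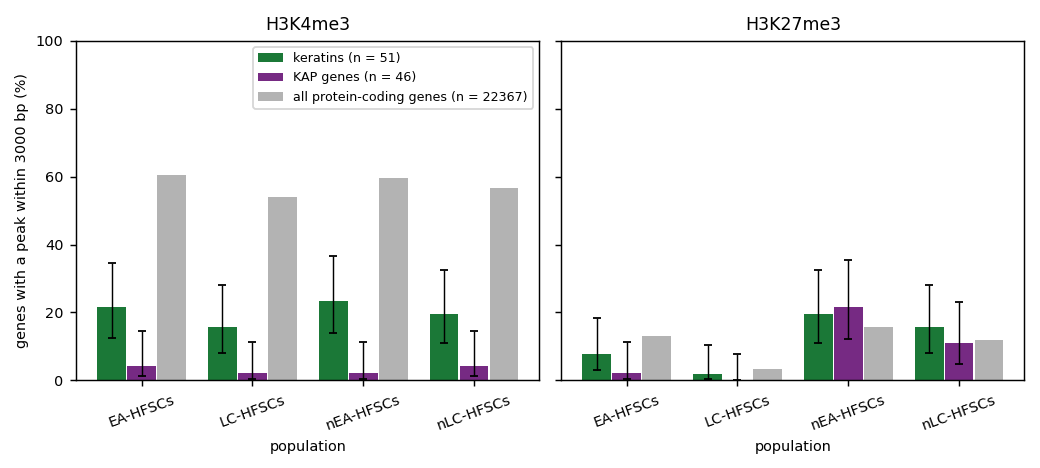
Share of keratins (51 genes), KAP genes (46 genes) and all protein-coding genes with an H3K4me3 (left) or H3K27me3 (right) peak within 3000 bp of the start, in percent, for the 4 populations. Error bars are 95% Wilson intervals and cover counting error only. The H3K4me3 bars of both gene groups lie below the grey bars in every population, while the H3K27me3 bars in nEA-HFSCs and nLC-HFSCs reach the level of all genes.

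The comparison of early anagen with late catagen asks which marks are present in dividing and in quiescent stem cells. Of the 13 members with an H3K4me3 peak in EA-HFSCs, 9 also had one in LC-HFSCs: Krt5, Krt14, Krt15, Krt6a, Krt10, Krt24, Krt80, Krt222 and Krtap11-1. Among all genes with an EA-HFSC peak, 89.0% had one in LC-HFSCs. The other 4 members, Krt17, Krt8, Krt28 and Krtap17-1, had no called peak in LC-HFSCs, and no member had a peak in LC-HFSCs alone. In the CD34- cells, 11 of 13 nEA-HFSC members had a peak in nLC-HFSCs as well, where 94.3% of all genes did. Krt12 and Krt6a had a peak in nEA-HFSCs only, and Krtap3-3 in nLC-HFSCs only.

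For H3K27me3, 1 of the 5 EA-HFSC members, Krt8, also had a peak in LC-HFSCs, against 25.5% of all genes with an EA-HFSC peak. In the CD34- cells 11 of the 20 nEA-HFSC members had a peak in nLC-HFSCs, against 70.9% of all genes. For H3K9me3, 0 of 7 EA-HFSC members had an LC-HFSC peak, against 0.425% of all genes. By the study's methods more reads were used for LC-HFSCs than for EA-HFSCs. The LC-HFSC lists held 1909 H3K27me3 and 1414 H3K9me3 peaks, compared with 25534 and 42277 in EA-HFSCs, and a gene without a peak in these short lists cannot be told apart from a gene whose signal stayed under the caller's threshold.

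The 6 keratins grouped here as the companion layer and outer root sheath class differed in which populations had a peak. Krt17, a type I keratin of the outer root sheath that is also induced on injury, had H3K4me3 scores of 984 in EA-HFSCs, 1526 in nEA-HFSCs and 434 in nLC-HFSCs and no peak in LC-HFSCs. Krt6a, a type II keratin of the companion layer, differed from Krt17 in the late catagen lists. Its start lay under a peak in EA-HFSCs (335, 3323 bp wide) and in LC-HFSCs (239, 3874 bp). In nEA-HFSCs it had only a 594-bp peak of score 50.4 that lay 1138 bp upstream, and in nLC-HFSCs none. Krt79 had a peak in nEA-HFSCs (226) and nLC-HFSCs (121) and in neither HFSC population. Krt75, the companion layer keratin, had no H3K4me3 but H3K27me3 in nEA-HFSCs (42.4) and nLC-HFSCs (49.4), and Krt6b had H3K27me3 in nLC-HFSCs (47.5). Krt16 had no peak at the start in any list. Krt6a and Krt6b are near-identical copies, and the authors removed reads of low mapping quality, so that the calls at both are uncertain.

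Among the 5 suprabasal keratins, Krt1 and Krt77 differed between the sorted populations at their starts. Krt1, the type II keratin of the spinous layer, had H3K4me3 over its start in nEA-HFSCs (1643, 5982 bp wide) and in nLC-HFSCs (617, 3462 bp) and in neither HFSC population. Krt77, a type II keratin of epidermis and sweat ducts, had scores of 2364 in nEA-HFSCs and 220 in nLC-HFSCs and no peak in HFSCs. Krt10, the type I partner of Krt1, had H3K4me3 in all 4 lists, with scores of 1094 in EA-HFSCs, 214 in LC-HFSCs, 2614 in nEA-HFSCs and 985 in nLC-HFSCs; the main LC-HFSC peak began 156 bp downstream of the start. Krt9, known from palm and sole skin, had H3K27me3 in nEA-HFSCs alone (122), and Krt2 had no peak at the start. A peak was called at 1, 1, 3 and 3 of these 5 genes in the 4 H3K4me3 lists (20.0, 20.0, 60.0 and 60.0%). The shares of all genes were 60.4, 53.9, 59.6 and 56.6%, so that the CD34- counts were near the share of all genes.

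Krt24 showed the reverse of Krt1 and Krt77. This type I keratin had H3K4me3 over its start in EA-HFSCs (493, 2707 bp) and LC-HFSCs (343, 3286 bp) and in neither CD34- population. Of all 97 members, Krt24 was the only gene with an H3K4me3 peak in both HFSC populations and in no CD34- list, and Krt1, Krt77 and Krt79 were the only genes with one in both CD34- lists and in no HFSC list. This holds for the 3000-bp window: within 5000 bp Krt1 also had an EA-HFSC peak, of score 298 and 3792 bp from the start, and Krt77 (EA-HFSCs and LC-HFSCs) and Krt79 (EA-HFSCs) had H3K4me3 peaks within the gene. The share of all protein-coding genes with either pattern was not counted, so that these counts have no genome-wide comparison. The starts of Krt24 and Krt77 are printed as examples of either pattern. Both hold TATA between 40 and 20 bases before the start and few CG, 3 in Krt24 and 2 in Krt77:
Krt24 chr11:99146547-99146746 minus strand: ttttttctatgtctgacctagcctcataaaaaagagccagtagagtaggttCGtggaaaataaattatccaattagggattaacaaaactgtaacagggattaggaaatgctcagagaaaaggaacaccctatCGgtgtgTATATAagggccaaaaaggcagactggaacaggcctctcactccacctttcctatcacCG
Krt77 chr15:101700107-101700306 minus strand: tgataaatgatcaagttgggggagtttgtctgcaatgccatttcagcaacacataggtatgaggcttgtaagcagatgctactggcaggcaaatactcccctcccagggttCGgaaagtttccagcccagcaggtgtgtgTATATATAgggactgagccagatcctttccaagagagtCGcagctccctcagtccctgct

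Other members with H3K4me3 in all 4 lists were Krt80, Krt222 and Krtap11-1. At Krt80, a type II keratin of differentiating cells, the peak spanned 10187 bp in EA-HFSCs (score 1754) and 9802 bp in LC-HFSCs (545). In nEA-HFSCs the peak over the start was 3715 bp wide (697) and in nLC-HFSCs 3417 bp (342), and a separate peak of score 3100 lay inside the gene, 3233 bp from the start in nEA-HFSCs and 4125 bp from it in nLC-HFSCs, over sequence that the wide HFSC peaks also cover. Krt222, an atypical keratin-like gene, had scores of 277, 79.7, 72.5 and 94.4 in EA-HFSCs, LC-HFSCs, nEA-HFSCs and nLC-HFSCs. Krtap11-1, the last gene of the chromosome 16 cluster, had scores of 325, 65.1, 199 and 155, and was the only KAP gene with H3K4me3 in more than 1 list.

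Of the 5 simple epithelial keratins, 2, 1, 2 and 3 had H3K27me3 at the start in EA-HFSCs, LC-HFSCs, nEA-HFSCs and nLC-HFSCs, where the shares of all genes were 13.0, 3.39, 15.6 and 11.9%. Krt8, the type II keratin of simple epithelia, was the only member with H3K27me3 in all 4 populations, with scores of 733 in EA-HFSCs, 84.0 in LC-HFSCs, 825 in nEA-HFSCs and 983 in nLC-HFSCs. In nEA-HFSCs the peak spanned 26666 bp, in the widest 0.767% of that list. In EA-HFSCs Krt8 also had H3K4me3 peaks 325 bp downstream (171) and 989 bp upstream (92.3) of the start and an H3K9me3 peak over it (219), and it was the only member with all 3 marks in 1 population. Among all genes in EA-HFSCs, 1409 had all 3. Krt18, the type I partner of Krt8 and its neighbour, had H3K27me3 over its start in EA-HFSCs (394) and nLC-HFSCs (452) and no peak at its start in LC-HFSCs or nEA-HFSCs.

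Over the 35.3-kb span from Krt8 to Krt18, H3K27me3 covered 67.9% in EA-HFSCs, 24.1% in LC-HFSCs, 51.1% in nEA-HFSCs and 90.8% in nLC-HFSCs. The nEA-HFSC domain covered Krt8 and stopped short of Krt18, whereas that of nLC-HFSCs reached past both. H3K4me3 covered 10.4% of the span in EA-HFSCs and none of it in the other lists, and H3K9me3 covered 16.3% in EA-HFSCs and 1.58% in nEA-HFSCs. Krt19, a simple epithelial keratin that is also known in the bulge, had no H3K4me3 within 3000 bp of its start in any list. It had H3K27me3 in nEA-HFSCs (285) and nLC-HFSCs (164) and in neither HFSC population. An H3K4me3 peak over the 3′ end of Krt19, 5773 bp from its start and 4596 bp from that of Krt15, was called in EA-HFSCs (196) and LC-HFSCs (51.3), and another 19098 bp from it in EA-HFSCs (325). Krt7 and Krt20 had no peak at the start in any list; Krt20 had 2 H3K27me3 peaks within the gene in nEA-HFSCs.

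Hair shaft keratins had no H3K4me3 within 3000 bp of the start in any population, against 60.4, 53.9, 59.6 and 56.6% of all genes. Farther from the start, H3K4me3 peaks lay inside Krt86 in all 4 populations and inside Krt39 in nEA-HFSCs (58.4). Of the 14 genes, 2 had H3K27me3 in EA-HFSCs, 0 in LC-HFSCs, 4 in nEA-HFSCs and 2 in nLC-HFSCs. These shares were 14.3, 0, 28.6 and 14.3%, where the shares of all genes were 13.0, 3.39, 15.6 and 11.9% in the same order. The Wilson interval of each hair shaft share included the share of all genes. Of the 14 genes, 10 had no peak of any mark at the start, where 59 of the 97 members and 6492 of the 22367 protein-coding genes had none. Krt83, a type II keratin of the hair cortex, had H3K27me3 over its start in EA-HFSCs (312), nEA-HFSCs (228) and nLC-HFSCs (265) and H3K9me3 in EA-HFSCs (115). Krt86 had H3K27me3 in EA-HFSCs (76.0) and nEA-HFSCs (91.7), Krt82 in nEA-HFSCs (57.1) and nLC-HFSCs (60.0), and Krt39 in nEA-HFSCs (45.5). The starts of Krt8, Krt18 and Krt83, which held the highest H3K27me3 scores of the family in EA-HFSCs, had 5, 15 and 17 CG within the printed 200 bases, compared with 5, 7 and 3 at Krt5, Krt14 and Krt15:
Krt8 chr15:101834744-101834943 minus strand: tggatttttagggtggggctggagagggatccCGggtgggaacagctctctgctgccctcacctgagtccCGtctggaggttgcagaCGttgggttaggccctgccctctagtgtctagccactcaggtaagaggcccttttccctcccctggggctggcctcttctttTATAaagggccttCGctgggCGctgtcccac
Krt18 chr15:101858477-101858676 plus strand: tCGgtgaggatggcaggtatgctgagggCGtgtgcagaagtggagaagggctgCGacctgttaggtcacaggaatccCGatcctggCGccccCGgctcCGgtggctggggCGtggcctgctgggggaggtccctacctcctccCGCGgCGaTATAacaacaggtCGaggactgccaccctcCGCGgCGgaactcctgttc
Krt83 chr15:101269206-101269405 minus strand: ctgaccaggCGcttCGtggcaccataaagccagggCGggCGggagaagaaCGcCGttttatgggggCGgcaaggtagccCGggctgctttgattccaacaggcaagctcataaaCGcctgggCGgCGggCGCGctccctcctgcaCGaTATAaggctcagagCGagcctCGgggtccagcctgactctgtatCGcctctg

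The inner root sheath keratins, which line the growing shaft, had few marks, as did the family. Krt28 had H3K4me3 in EA-HFSCs (120), and Krt26 had H3K27me3 in nEA-HFSCs (138) and nLC-HFSCs (76.7). The other 5 of the 7 had no peak at the start, where 59 of the 97 members and 6492 of the 22367 protein-coding genes had none. Of the 4 mucosal and corneal keratins only Krt12, the corneal type I keratin, was marked, with H3K27me3 over its start (113) and a 988-bp H3K4me3 peak 1080 bp downstream (73.0) in nEA-HFSCs. It was the only member besides Krt8 with H3K4me3 and H3K27me3 in the same population; among all genes, 1766 in EA-HFSCs and 2120 in nEA-HFSCs had both. Of the 7 other keratins, 4 (Krt23, Krt42, Krt78 and Krt72-ps) had no peak at the start.

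Among the 46 KAP genes, which encode the cysteine- or glycine-rich matrix of the hair shaft, 33 had no peak at the start. Of the 51 keratins 26 had none, and of the 22367 protein-coding genes 6492 had none. Krtap17-1 had their highest H3K27me3 score in nEA-HFSCs (398, 5608 bp wide), with 132 in nLC-HFSCs, and an H3K4me3 peak of low score in EA-HFSCs (74.9). Krtap5-4 had H3K27me3 in EA-HFSCs (306), nEA-HFSCs (163) and nLC-HFSCs (106) and H3K9me3 in EA-HFSCs (43.2). The scores of the other KAP genes with H3K27me3 in nEA-HFSCs (Krtap1-3, Krtap4-1, Krtap4-2, Krtap4-7, Krtap4-16, Krtap5-3, Krtap5-5 and Krtap9-3) ran from 40.4 to 102, where 40 was the lowest score of the list. The peak at Krtap4-1 and Krtap4-2 was the same peak. Krtap3-3 had H3K4me3 in nLC-HFSCs (67.6), and Krtap12-1 had H3K9me3 in nEA-HFSCs (59.6). KAP genes belong to families of near-identical copies, so that these calls are uncertain.

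All but 5 members lie in 3 clusters. The type I keratin and KAP cluster (chr11:99094075-100131185) runs for 1.037 Mb from Krt222 to Krt42 and holds 27 keratins and 22 KAP genes, with 34 other annotated coding genes. The type II keratin cluster (chr15:101177875-101862457) runs for 0.685 Mb from Krt80 to Krt18 and holds 24 keratins by the symbol rule. It has 4 other annotated coding genes, of which 3 have a keratin or KAP symbol in RefSeq and were not counted as members. Of the 34 others in the type I cluster, 16 were found in RefSeq and 1 had such a symbol there. A KAP cluster (chr16:88610954-89571428) runs for 0.961 Mb from Krtap24-1 to Krtap11-1 and holds 19 KAP genes, with 14 other annotated coding genes. The members outside the clusters are Krtap5-2, Krtap5-3, Krtap5-4 and Krtap5-5 on chromosome 7 and Krtap12-1 on chromosome 10.

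The type I cluster held no H3K27me3 peak in EA-HFSCs, although that list was the densest of the 4 over the genome at 9.97 peaks per Mb. It held 36 in nEA-HFSCs, where the genome had 6.83 per Mb, 13 in nLC-HFSCs, where it had 5.96, and 0 in LC-HFSCs, where it had 0.745. The nEA-HFSC peaks covered 90.6 kb, 8.74% of the cluster, and the nLC-HFSC peaks 17.1 kb. In the 500 kb to either side of the cluster, the H3K27me3 lists had 2, 0, 6 and 2 peaks in EA-HFSCs, LC-HFSCs, nEA-HFSCs and nLC-HFSCs. Per Mb, the nEA-HFSC list thus had 34.7 peaks over the cluster, 6 in the flanks and 6.83 over the genome, and the EA-HFSC list had 0, 2 and 9.97. With scores of at least 100, the cluster held 10 H3K27me3 peaks in nEA-HFSCs, 4 in nLC-HFSCs and 0 in EA-HFSCs, and among equally long lists of top-scoring peaks it held none in any population. Of the 36 peaks, 13 lay at the start of a member and 23 elsewhere. Some of these 23 lay at or near the starts of other coding genes, such as Gm14190 (0 bp), Gm11596 (503 bp) and Gm11570 (543 bp). Between Krt15 and Krt14, 75.8 kb apart at their outer ends, 6 H3K27me3 peaks covered 20.4% in nEA-HFSCs, 1 covered 3.12% in nLC-HFSCs, and both HFSC lists had none there.

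**Figure D3:**
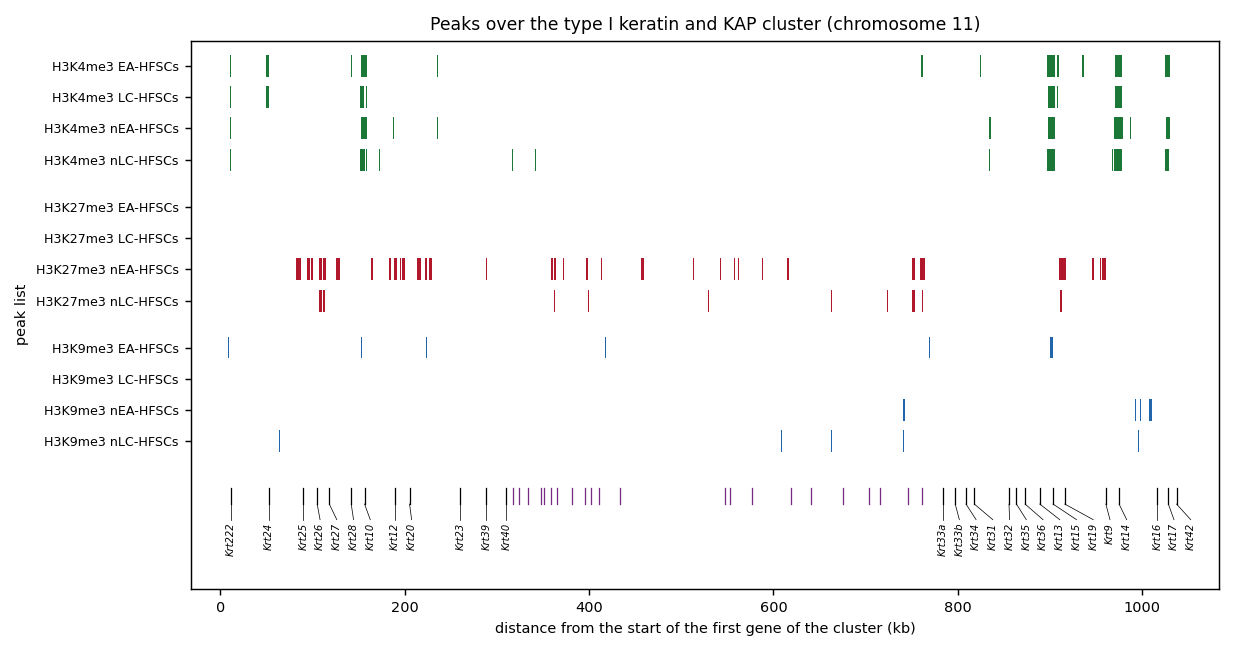
Peaks of the 12 lists over the type I keratin and KAP cluster, by distance in kb from the first gene's end of the cluster; peaks narrower than 0.8 kb are drawn 0.8 kb wide. Ticks at the bottom mark gene starts, black with names for keratins and purple for KAP genes. The H3K27me3 rows of EA-HFSCs and LC-HFSCs are empty, while nEA-HFSCs show 36 peaks and nLC-HFSCs 13.

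In the type II cluster, H3K27me3 was present in EA-HFSCs, with 11 peaks covering 31.4 kb, and 1 peak covered 8.51 kb in LC-HFSCs, 16 covered 73.3 kb in nEA-HFSCs and 14 covered 51.1 kb in nLC-HFSCs. Per Mb these were 16.1, 1.46, 23.4 and 20.5 peaks in the same order. The 500 kb to either side had 20, 2, 19 and 24 per Mb, and the genome 9.97, 0.745, 6.83 and 5.96. The cluster's densities were thus above those of the genome and near those of its flanks. The span from Krt84 to Krt75 is 48.9 kb long and holds Krt82 and the coding gene 4732456N10Rik, whose symbol falls outside the rule. H3K27me3 covered 33.9% of it in nEA-HFSCs, 9.65% in nLC-HFSCs and none in either HFSC list. The nEA-HFSC peaks lay by Krt82 (57.12), over the start of 4732456N10Rik (50.45) and at Krt75 (42.45 and 42.36), with none at Krt84. Those of nLC-HFSCs scored 60.0, 50.05 and 49.35 by the same genes. All these scores were low, where 40 was the lowest of the H3K27me3 lists. No H3K4me3 or H3K9me3 peak of any list lay in this span. The KAP cluster on chromosome 16 had 1 H3K27me3 peak in EA-HFSCs and none in the other lists.

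**Figure D4:**
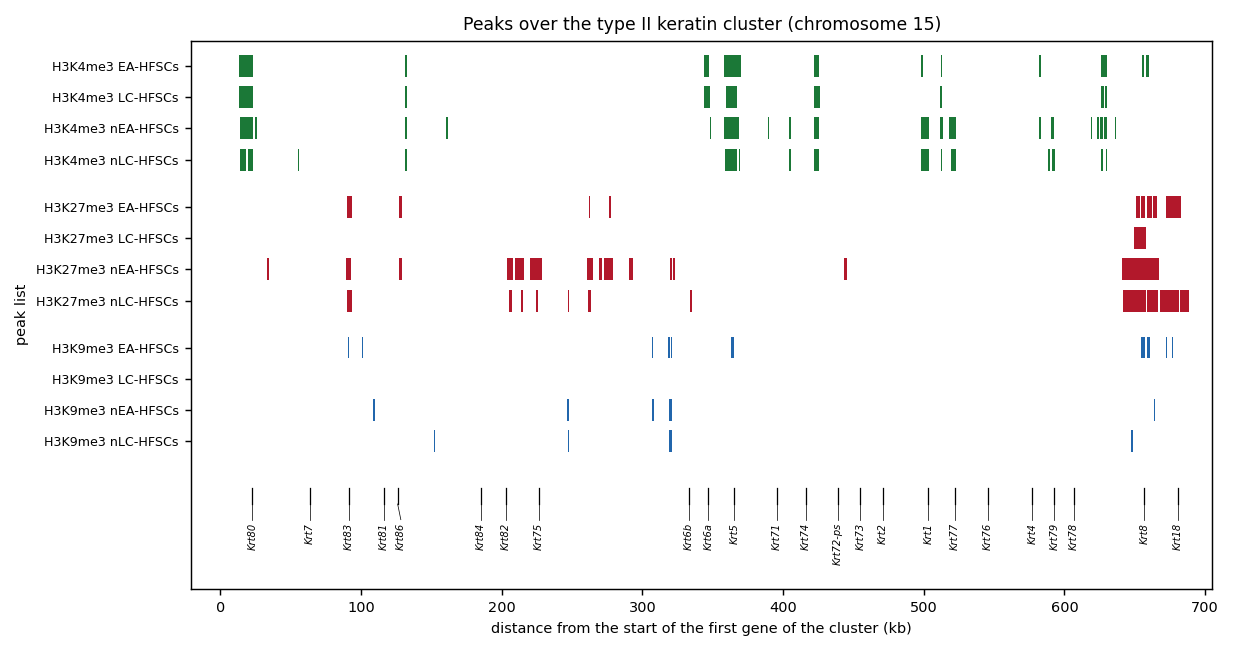
Peaks of the 12 lists over the type II keratin cluster, by distance in kb from the first gene's end of the cluster, drawn as for the type I cluster. H3K4me3 lies over Krt80, Krt5 and a stretch between Krt74 and Krt72-ps in all 4 populations and over Krt1 and Krt77 starts in nEA-HFSCs and nLC-HFSCs only, and H3K27me3 covers Krt8.

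H3K4me3 numbered 14, 7, 11 and 11 peaks in EA-HFSCs, LC-HFSCs, nEA-HFSCs and nLC-HFSCs over the type I cluster, 11, 8, 22 and 19 over the type II cluster and 2, 1, 2 and 1 over the KAP cluster. Per Mb these were 13.5, 6.75, 10.6 and 10.6, then 16.1, 11.7, 32.1 and 27.8, then 2.08, 1.04, 2.08 and 1.04. The genome had 8.39, 5.75, 9.56 and 7.42 per Mb. The 500 kb to either side had more: 49, 37, 58 and 41, then 47, 30, 51 and 48, then 11, 6, 14 and 13. Of the 27 EA-HFSC peaks over the 3 clusters, 15 were overlapped by an LC-HFSC peak (55.6%, 37.3 to 72.4%), compared with 66.4% of all EA-HFSC H3K4me3 peaks. With equally long lists these shares were 83.3% over the clusters and 89.8% over the genome. H3K27me3 had 2 of 12 overlapped (16.7%, 4.70 to 44.8%), compared with 6.64% over the genome, and H3K9me3 0 of 28 (0 to 12.1%), compared with 1.74%; all 3 genome shares lie within the intervals. H3K9me3 numbered 8, 0, 4 and 7 peaks over the type I cluster, 12, 0, 5 and 4 over the type II cluster and 8, 0, 2 and 2 over the KAP cluster in the same order. Per Mb these were 7.71, 0, 3.86 and 6.75, then 17.5, 0, 7.3 and 5.84, then 8.33, 0, 2.08 and 2.08. The genome had 16.5, 0.525, 6.87 and 7.09 per Mb.

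Some H3K4me3 peaks of the clusters lay more than 3000 bp from every annotated gene start. When overlapping peaks of the 4 lists were joined, and places overlapped by a peak at a gene start in any list were left out (4 in the type II cluster), the type II cluster held 13 such places, of which 4 were marked in all 4 populations, 8 in CD34- cells only and 0 in HFSCs only. The strongest of the shared places (chr15:101599584-101603902) lay between genes, 5649 bp from Krt74 and 12987 bp from Krt72-ps, with scores of 823 in EA-HFSCs, 187 in LC-HFSCs, 2228 in nEA-HFSCs and 515 in nLC-HFSCs. The others lay inside Krt86 (chr15:101308911-101310742, scores of 223, 99.4, 517 and 390), inside Krt77 (chr15:101689647-101691258, 219, 81.9, 330 and 217) and between Krt78 and Krt8 (chr15:101803471-101808184, 260, 134, 251 and 133). Krt74 and Krt86 themselves had no H3K4me3 at the start in any list. The type I cluster held 10 such places, with 0 in all 4 populations, 3 in HFSCs only and 5 in CD34- cells only. Among the HFSC-only places were those in and beside Krt19. Of these 10, 6 were called in 1 list only, with scores from 50.7 to 325. The 4 lists held 21482, 14718, 24498 and 18996 H3K4me3 peaks in EA-HFSCs, LC-HFSCs, nEA-HFSCs and nLC-HFSCs. How such places divide between populations over the genome was not counted, so that these counts have no genome-wide comparison.

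The members share sequence features that the rule did not use. CpG content, as the observed count over that expected from base composition in the 500 bp on each side of the start, had a median of 0.236 over the members (0.320 for keratins and 0.162 for KAP genes), against 0.548 over all genes. None of the 97 reached 0.6, which 45.6% of all genes did. In all genes the share with H3K4me3 rose with this ratio. In EA-HFSCs, H3K4me3 lay at 7.87% of genes with a ratio under 0.2, and at 0 of 35 members in this range. It lay at 26.6% of genes from 0.2 to 0.4 and at 10 of 48 members, and at 70.7% of genes from 0.4 to 0.6 and at 3 of 14 members. In the same ranges, H3K27me3 in nEA-HFSCs lay at 6.11, 13.5 and 26.3% of genes. Members had it at 6 of 35, 9 of 48 and 5 of 14 starts, a higher share in each range. In EA-HFSCs it lay at 6.03, 11.4 and 22.3% of genes and at 1, 1 and 3 of these members, a lower share in each. In nLC-HFSCs it lay at 3.62, 8.77 and 20.8% of genes and at 4, 4 and 5 members. These differences were not tested. The 18 members with H3K4me3 in any population had a median ratio of 0.306 (range 0.148 to 0.555), the 5 with H3K27me3 in HFSCs 0.438 (0.103 to 0.584), the 17 with H3K27me3 in CD34- cells only 0.235 (0.0287 to 0.494), and the 59 without any peak 0.216 (0.0240 to 0.531). These ranges overlap.

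**Figure D5:**
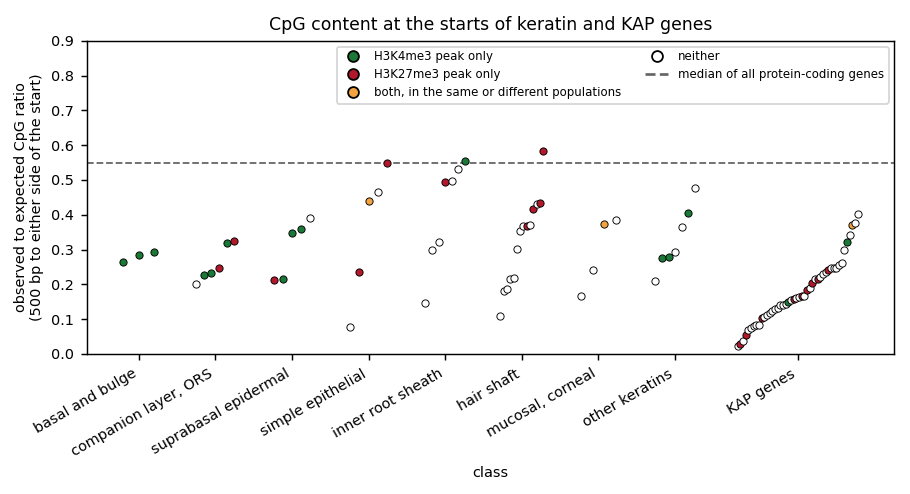
Observed to expected CpG ratio in the 500 bp to either side of the start of each of the 97 keratin and KAP genes (vertical axis), by class and in rising order within it; colour gives whether an H3K4me3 or H3K27me3 peak lay at the start in any population. The dashed line is the median of all protein-coding genes (0.548); most members lie under it, and the basal and bulge keratins stand between 0.265 and 0.292.

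TATA on the forward strand began between 40 and 20 bases before the annotated start in 55 of the 97 members (56.7%), against 5.66% of all genes. In Krt15, Krt24, Krt77 and Krt83 it began 27, 30, 30 and 22 bases before the start, whereas in Krt14 it began at the annotated start itself and in Krt8 1 base before it, outside that range, so that the count depends on where the annotation places the start. In the window from 250 bases before to 50 after the start, searched on both strands, CTTTGA, the core that LEF/TCF factors bind, was found in 9 of 14 hair shaft keratins (64.3%: Krt31, Krt33a, Krt33b, Krt34, Krt35, Krt39, Krt81, Krt83 and Krt86), in 26.8% of members and in 15.1% of all genes, and in none of the basal and bulge or companion layer keratins. TGANTCA, the AP-1 core, was found in Krt14 and Krt15, in 13.4% of members and in 6.93% of all genes. GGGCGG, the GC box, was found in 6.19% of members, Krt14 and Krt83 among them, and in 43.4% of all genes. The forkhead core TGTTTAC was found in 5.15% of members and 3.11% of genes. Each motif was counted on its own, and CTTTGA and TGANTCA can share the letters TGA; a match is a description of sequence only.

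Genes that act with the keratins were read from lists. Of 10 transcription factor genes known in hair differentiation, all 10 had H3K4me3 in all 4 populations, and 5, 1, 7 and 7 also had H3K27me3 in EA-HFSCs, LC-HFSCs, nEA-HFSCs and nLC-HFSCs. The shares of all genes were 60.4, 53.9, 59.6 and 56.6% for H3K4me3 and 13.0, 3.39, 15.6 and 11.9% for H3K27me3. Hoxc13, a regulator of hair keratin genes, had H3K4me3 scores of 3100, 1040, 1173 and 737 and H3K27me3 scores of 570 in EA-HFSCs and 1156 in nLC-HFSCs, with no H3K27me3 peak in the other lists. Lef1, which encodes a factor that binds CTTTGA, had H3K4me3 scores of 1766, 113, 1148 and 980 and H3K27me3 in all but LC-HFSCs. Of 8 genes for desmosomal and plakin proteins, which anchor keratin filaments, all 8 had H3K4me3 in all 4 lists, and only Dst had H3K27me3, in nEA-HFSCs (541) and nLC-HFSCs (346). Of 10 other intermediate filament genes, such as Vim, Nes and Des, 8, 3, 6 and 4 had H3K4me3 and 8, 3, 8 and 8 had H3K27me3.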

How the data were processed

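ChIP-seq of 3 marks in 4 sorted populations was read from 12 deposited peak lists; the 4 IgG samples, the authors' background, have no list here. Per the study's methods, the authors trimmed single-end reads (Trimmomatic 0.22 per the processing notes), aligned them to mm9 with Bowtie2, removed low-quality alignments, pooled replicates and called peaks with MACS against IgG. The score in the deposited lists is the authors' negative log10 p-value multiplied by 10, with a lowest value of 50 for H3K4me3 and 40 for the other marks. The lists do not give depth; the study's methods state that more reads were used for LC-HFSCs than for EA-HFSCs.

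A peak counted for a gene when it came within 3000 bp of the annotated start (GENCODE vM1, NCBIM37). Clusters were runs of at least 5 members no more than 1000000 bp apart. Shares have 95% Wilson intervals. Python 3.11.15 and scipy 1.17.1 were used, and the peak assignment was tested on simulated peaks and against bedtools 2.31.1. The 733 peaks on unplaced sequence entered score ranks only. Named were all basal, bulge and simple epithelial keratins and, in the other classes, members with the highest scores per mark or with a mark that differed between HFSCs and CD34- cells of the same age. The members, classes and lists were chosen with earlier results of these data known. The alternatives were scores of at least 50 or 100, equally long lists of top-scoring peaks within a mark, windows of 1000 and 5000 bp, any transcript start, merging of peaks less than 1000 bp apart and an overlap of at least 50%.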

Additional observations from a re-analysis of the deposited data

Results flagged for a closer look

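Krt18 and the type I cluster showed opposite differences between ages in CD34+ and in CD34- cells; neither difference was tested, since there was 1 list per population. At the start of Krt18, H3K27me3 had a score of 394 in EA-HFSCs with no peak (score 0) in LC-HFSCs, while it had no peak (score 0) in nEA-HFSCs and a score of 452 in nLC-HFSCs. Over the type I cluster on chromosome 11, H3K9me3 peaks numbered 8 in EA-HFSCs but 0 in LC-HFSCs, and 4 in nEA-HFSCs and 7 in nLC-HFSCs. Over the genome the same lists held 16.5, 0.525, 6.87 and 7.09 H3K9me3 peaks per Mb, so that the cluster moved in the same directions as the whole lists.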

How the results depend on the processing

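Under the alternatives listed above, 108 recomputed values moved by at most 1.5 times (or, for a share, stayed within its interval) and 42 moved further. The H3K4me3 counts at member starts stayed within 1.5 times under every alternative. At a score of at least 50, H3K9me3 members in EA-HFSCs came to 4, and cluster peaks to 33 for H3K27me3 in nEA-HFSCs and to 16, 6 and 6 for H3K9me3 in EA-HFSCs, nEA-HFSCs and nLC-HFSCs. At a score of at least 100, H3K27me3 members in LC-HFSCs, nEA-HFSCs and nLC-HFSCs came to 0, 9 and 6, those in both EA-HFSCs and LC-HFSCs to 0, and H3K9me3 members in EA-HFSCs and nEA-HFSCs to 2 and 0. Cluster peaks then came to 9, 21 and 18 for H3K4me3 in LC-HFSCs, nEA-HFSCs and nLC-HFSCs, to 6, 0, 13 and 10 for H3K27me3 in EA-HFSCs, LC-HFSCs, nEA-HFSCs and nLC-HFSCs, and to 2, 3 and 1 for H3K9me3 in EA-HFSCs, nEA-HFSCs and nLC-HFSCs, and 0% of EA-HFSC H3K27me3 cluster peaks were overlapped in LC-HFSCs. With equally long lists of the top-scoring peaks of a mark, H3K27me3 members in EA-HFSCs, nEA-HFSCs and nLC-HFSCs came to 1, 1 and 2 and H3K9me3 members in EA-HFSCs and nEA-HFSCs to 1 and 0. Cluster peaks then came to 17 and 18 for H3K4me3 in nEA-HFSCs and nLC-HFSCs, to 1, 1 and 5 for H3K27me3 and to 1, 1 and 1 for H3K9me3 in EA-HFSCs, nEA-HFSCs and nLC-HFSCs, and the overlapped shares to 83.3% for H3K4me3 and 100% (1 of 1 peak) for H3K27me3. The H3K27me3 count of members was thus higher in nEA-HFSCs than in EA-HFSCs at a score of at least 100 (9 and 4) and equal in the shortened lists (1 and 1). In alternatives chosen after the data were seen, the type I cluster held 24, 10 and 0 H3K27me3 peaks in nEA-HFSCs and 10, 4 and 0 in nLC-HFSCs at a score of at least 50, of at least 100 and in the shortened lists, 30 and 10 after merging, and 0 in EA-HFSCs and LC-HFSCs in each case. With a window of 1000 bp, H3K27me3 members came to 13 in nEA-HFSCs and 6 in nLC-HFSCs, and with 5000 bp, H3K9me3 members to 3 in nEA-HFSCs and 1 in nLC-HFSCs. Merging left 7 H3K27me3 cluster peaks in EA-HFSCs. No paired analysis was possible because each population and mark had 1 list, and no replicate could be left out for the same reason. Scores are not comparable between lists, the starts of near-identical genes are uncertain, and a gene without a peak may have had signal under the caller's threshold.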

Other observations

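H3K4me3 peaks touched the body of 18, 12, 16 and 13 of the 97 keratin and KAP genes in EA-HFSCs, LC-HFSCs, nEA-HFSCs and nLC-HFSCs (18.6, 12.4, 16.5 and 13.4%), against 63.1, 56.0, 62.2 and 59.1% of all protein-coding genes. H3K27me3 touched 5, 1, 15 and 8 members, against 14.7, 3.81, 17.0 and 13.4% of all genes. H3K9me3 touched 6, 0, 1 and 0 members, against 51.1, 1.46, 13.4 and 22.2% of all genes. In nLC-HFSCs no member had an H3K9me3 peak in its body or at its start, although the type I and type II clusters held 7 and 4 such peaks outside the members.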
